A study of Mus musculus with 10 samples.

Results

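Secreted Wnt antagonists were examined in RNA-seq of the mouse right atrium: Sfrp1, Sfrp2, Sfrp4, Sfrp5, Frzb, Dkk2, Dkk3 and Wif1, 8 of the 23337 genes in the deposited table. The family was chosen by the counts of Sfrp5, which were far lower in the mice labelled Tbx5 mutant and very uneven among the controls, so both of these properties of Sfrp5 are given as a description without a test. Tbx5 is a T-box transcription factor of the atrium. RNA came from the right atria of 10 mice, each giving 1 library, with 4 labelled control (M1, M2, F1 and F2) and 6 labelled Tbx5 mutant (F1 to F3 and M1 to M3), where M and F stand for the labelled sex. In the mutant mice, of a mixed strain, Cre driven from the ubiquitous R26 locus removes Tbx5 in every cell type it reaches, after tamoxifen. The labels give tamoxifen at 0.167 mg per day for 3 days for all 10 mice, control and mutant alike. The mice were killed 1 week later, and the labels give ages of both 6 to 8 and 8 to 10 weeks. On the genotype of the controls, the labels say no more than that they are controls. For its left atrial work the study used mice with the same Cre and intact Tbx5.

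Wnt ligands are secreted glycoproteins that bind Frizzled receptors on the cell surface, together with the coreceptors Lrp5 and Lrp6, and thereby stabilise beta-catenin in the responding cell. The secreted Frizzled-related proteins, Sfrp1, Sfrp2, Sfrp4, Sfrp5 and Frzb (also called Sfrp3), carry a cysteine-rich domain like that of Frizzled and can bind Wnt ligands outside the cell. Wif1 binds Wnt ligands through another domain. Dkk2 acts through Lrp5 and Lrp6, while Dkk3 is a divergent member of the Dickkopf family whose place in Wnt signalling is less settled. In the embryo, Sfrp5 marks cells at the venous pole of the heart, where the atria and the sinus node form, and in adults it is known as a product of fat. Sfrp2 and Frzb are widely expressed by fibroblasts and other connective tissue cells.

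The promoters of Sfrp5 and Sfrp2 are shown because these genes carried the largest and the opposite differences described below. Each stretch is the 250 bases before the RefSeq start of the gene in GRCm38.p6, read 5′ to 3′ on the strand of the gene, and capitals mark AGGTG or its reverse complement CACCT, the core letters of a T-box element. Sfrp5 is read from the reverse strand at chr19:42202253-42202502, and Sfrp2 from the forward strand at chr3:83766071-83766320.
Sfrp5: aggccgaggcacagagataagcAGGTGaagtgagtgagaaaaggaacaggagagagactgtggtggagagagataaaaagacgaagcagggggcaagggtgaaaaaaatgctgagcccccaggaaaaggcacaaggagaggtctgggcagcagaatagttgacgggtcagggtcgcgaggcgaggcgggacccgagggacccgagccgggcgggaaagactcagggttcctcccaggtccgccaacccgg
Sfrp2: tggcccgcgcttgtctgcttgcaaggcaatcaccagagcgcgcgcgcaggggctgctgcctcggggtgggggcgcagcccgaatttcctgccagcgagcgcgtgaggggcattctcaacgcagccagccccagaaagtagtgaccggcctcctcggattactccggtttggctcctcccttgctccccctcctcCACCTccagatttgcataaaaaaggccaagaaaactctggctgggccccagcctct
Each window held 1 match, at base 23 in Sfrp5 and at base 195 in Sfrp2. The longer word AGGTGT, searched on both strands and always overlapping AGGTG, was in neither window. Of the 5 members with a RefSeq promoter, only Frzb held it, at base 74. Among 32851 RefSeq promoter windows of the same length, 46.0% held AGGTG and 11.8% held AGGTGT on at least 1 strand. A match is a run of letters and not a bound site. In the GENCODE M21 annotation of GRCm38, Sfrp5 (ENSMUSG00000018822.7) spans bases 42197971 to 42202252 of chromosome 19 on the reverse strand, and Sfrp2 (ENSMUSG00000027996.13) bases 83766321 to 83774316 of chromosome 3 on the forward strand, so each window ends next to the first annotated base of its gene.

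Libraries held 5703775 to 7095141 counted reads. Several libraries stood apart from their labels or from the others. Tbx5, the targeted gene, had 1195 to 1505 reads in the libraries labelled control and 1010 to 3524 in those labelled Tbx5 mutant (log2 fold change 0.94, standard error 0.15, Benjamini-Hochberg adjusted p = 0.000495, quasi-likelihood test in edgeR), which goes against the label for a count over the whole gene. A count of this kind does not tell transcripts with the deleted exon from those without it. All directions are therefore given between libraries labelled control and libraries labelled Tbx5 mutant, called control and mutant for short. The ribosomal RNA precursor Rn45s took 38.9% of the counts in mutant M3 and 0.268% to 1.49% in the other libraries. The control libraries labelled male had 10149 and 7850 reads of Xist, the RNA of the inactive X chromosome, and 0 of the Y-linked gene Ddx3y, whereas those labelled female had 5 and 14 reads of Xist and 1319 and 1124 of Ddx3y. Sex-linked reads thus went against the labelled sex in all 4 controls, while they matched it in the 6 mutants. Sex is named by label throughout, and contrasts of genotype within a labelled sex and the interaction of both are also given with the control labels exchanged. As the tissue was read in bulk, fewer cells of a type and less RNA per cell cannot be told apart.

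Of the 8 antagonists, Dkk3 was by far the most abundant per length of transcript. In control libraries it was at 559 ± 30.9 CPM per kb (SD, n = 4), where CPM is the counts-per-million value of the TMM-scaled library and the length is that of the longest GENCODE M21 transcript. Sfrp2 followed at 19.2 ± 15.5, Sfrp5 at 14.8 ± 15.1, Sfrp1 at 8.26 ± 0.823, Frzb at 4.11 ± 1.53 and Sfrp4 at 0.289 ± 0.154 CPM per kb (SD, n = 4 each). The neighbours Sfrp2, Sfrp5 and Sfrp1 did not differ beyond their spread, since the ranges over control libraries were 4.93 to 33.2, 1.05 to 30.3 and 7.10 to 9.04 CPM per kb. In mutant libraries the order was Dkk3 at 343 ± 51.4, Sfrp2 at 66.2 ± 15.8, Sfrp1 at 15.5 ± 2.42, Frzb at 8.04 ± 1.702, Sfrp4 at 0.405 ± 0.060 and Sfrp5 at 0.296 ± 0.118 CPM per kb (SD, n = 6 each). The ranges of the last pair overlapped there, at 0.336 to 0.506 for Sfrp4 and 0.147 to 0.430 for Sfrp5. The place of Sfrp5 differed between control libraries. In control F1 and F2, Sfrp5 at 25.3 and 30.3 CPM per kb was above Sfrp2 at 6.65 and 4.93. In control M1 and M2, Sfrp5 at 1.05 and 2.70 CPM per kb was below Sfrp2 at 33.2 and 31.9, Sfrp1 at 8.50 and 9.04 and Frzb at 5.08 and 5.67.

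**Figure D1:**
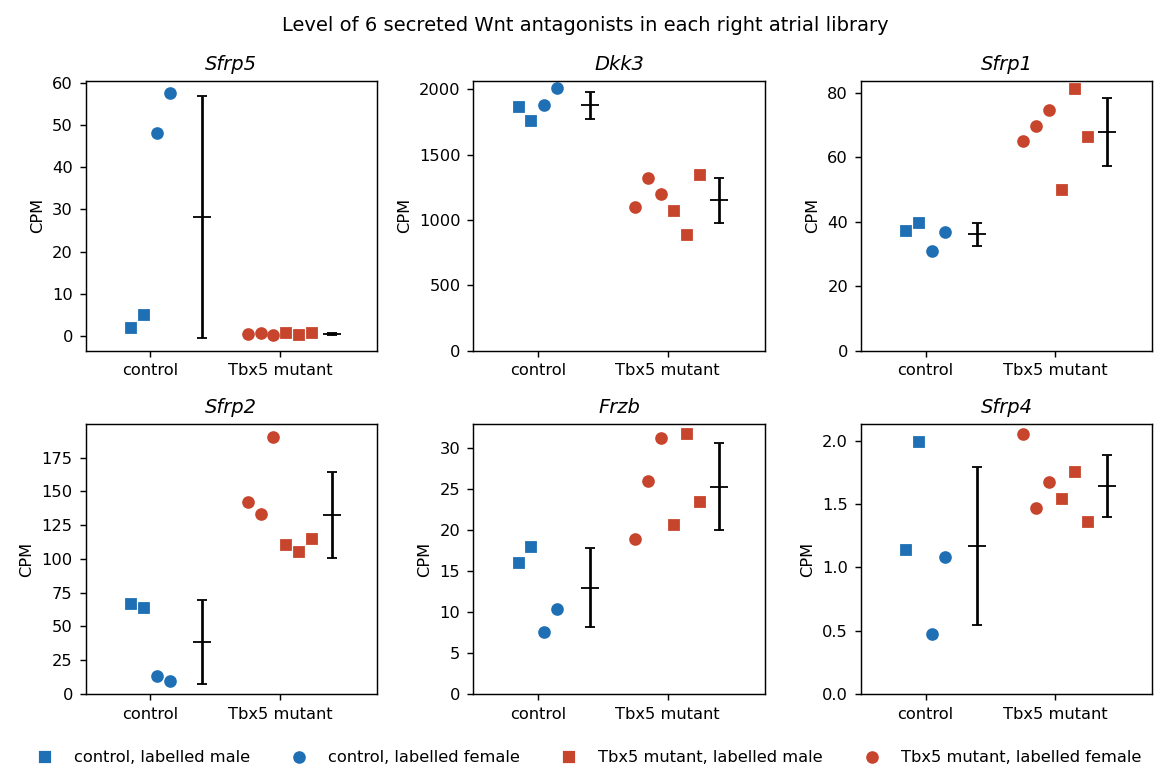
CPM of the secreted Wnt antagonists in each of the 10 libraries, 4 labelled control (blue) and 6 labelled Tbx5 mutant (red), on a linear axis for each gene. Squares are libraries labelled male, circles those labelled female, and bars beside them the mean ± SD. Sfrp5 spans 2.00 to 57.5 CPM in the controls and stays at or under 0.817 CPM in the mutants, whereas Sfrp1, Sfrp2 and Frzb lie higher in every mutant than in every control.

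Dkk2 and Wif1 were barely detected. Dkk2 had 1, 0, 1 and 0 reads in control M1, M2, F1 and F2, and 1, 0, 0, 2, 4 and 1 in mutant F1, F2, F3, M1, M2 and M3. Wif1 had 1 read in control M1 and at most 2 in any mutant library. With a floor of 3 reads, 4.23e-05% to 5.26e-05% of a library, no difference in either gene was detectable at this depth. The other 6 antagonists passed the expression filter, and Sfrp5 did so through the control libraries. Sfrp4 passed only narrowly, and failed the filter when mutant F3 was left out. Sfrp5 is given no call, since its difference chose the family. Of the other 5, Dkk3 was called lower and Sfrp1, Sfrp2 and Frzb higher, where a call needs an adjusted p under 0.05, a fold over 1.5 and a control mean of the normalized signal over 1. Sfrp4 was not called. Among all 13084 genes tested, 15.7% were called, 7.16% lower and 8.50% higher; because the contrast of Sfrp5 picked the family, nothing is read from the count of members against this share. The median log2 fold change was 0.91 over these 5 and -0.00495 over all genes tested.

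Sfrp5 was nearly confined to the control libraries labelled female. It was at 2.00 and 5.13 CPM in control M1 and M2 and at 48.0 and 57.5 CPM in control F1 and F2. In the mutants it was at 0.631, 0.666 and 0.279 CPM in F1, F2 and F3 and at 0.686, 0.291 and 0.817 CPM in M1, M2 and M3. Every mutant library was below every control library, and the controls labelled male lay between the mutants and the controls labelled female. In reads, control M1 and M2 had 14 and 31, control F1 and F2 had 306 and 425, and the mutants had 2 to 5. The control libraries labelled female together held 731 reads (95% exact Poisson interval 679 to 786), which was 91.8% of all Sfrp5 reads. The controls labelled male held 45 (32.8 to 60.2) and the 6 mutants 20 (12.2 to 30.9), with intervals that cover counting error only.

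The mean was 28.2 ± 28.7 CPM in the controls (SD, n = 4) and 0.562 ± 0.223 CPM in the mutants (SD, n = 6), a ratio of 50.1. The SD of the controls was thus as large as their mean. The fitted log2 fold change was -5.67 (standard error 0.902), rank 3 among the falls of the 13084 genes tested. It depended on the controls used. Without control F2 the log2 fold change was -5.04. It was -2.62 within libraries labelled male and -6.60 within those labelled female, in a fit of 4 groups (genotype by labelled sex) added after the values were seen. These became -6.53 and -2.69 with the control labels exchanged. Control F libraries averaged 52.8 CPM, 14.8 times the 3.57 CPM of the control M libraries and 93.9 times the mean of the mutants. The control M libraries were in turn 6.35 times above the mutant mean. The unevenness within controls had no counterpart in mutants, where labelled males averaged 0.598 CPM and labelled females 0.525 CPM, both within 2 to 5 reads per library.

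Sfrp2 ran the other way in the same libraries. It was at 66.6 and 63.9 CPM in control M1 and M2, and at only 13.3 and 9.88 CPM in control F1 and F2. In the mutants it was at 141.9, 133.3 and 190.5 CPM in F1, F2 and F3 and at 110.1, 105.4 and 114.4 CPM in M1, M2 and M3. Every mutant library was above every control library, and the controls with the most Sfrp5 had the least Sfrp2. Mean Sfrp2 was 38.4 ± 31.0 CPM in the controls (SD, n = 4) and 133 ± 31.7 CPM in the mutants (SD, n = 6), a ratio of 3.45. The log2 fold change was 1.79 (standard error 0.44, adjusted p = 0.00728, edgeR's quasi-likelihood test), with adjusted p between 2.55e-06 and 0.0274 over 27 alternatives. It was past the threshold within each labelled sex, at 0.75 in libraries labelled male (adjusted p = 0.00738) and 3.75 in those labelled female (adjusted p = 2.21e-07, edgeR contrasts in the fit of 4 groups). With the control labels exchanged it was 3.25 in mutants labelled male (adjusted p = 9.66e-07) and 1.25 in those labelled female (adjusted p = 0.00057). Over the 10 libraries, log2 CPM of Sfrp2 and Sfrp5 had a Pearson r of -0.98, and of -0.94 for deviations from the group means. These are descriptions over points that share library and depth and that fall in separate clusters.

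**Figure D2:**
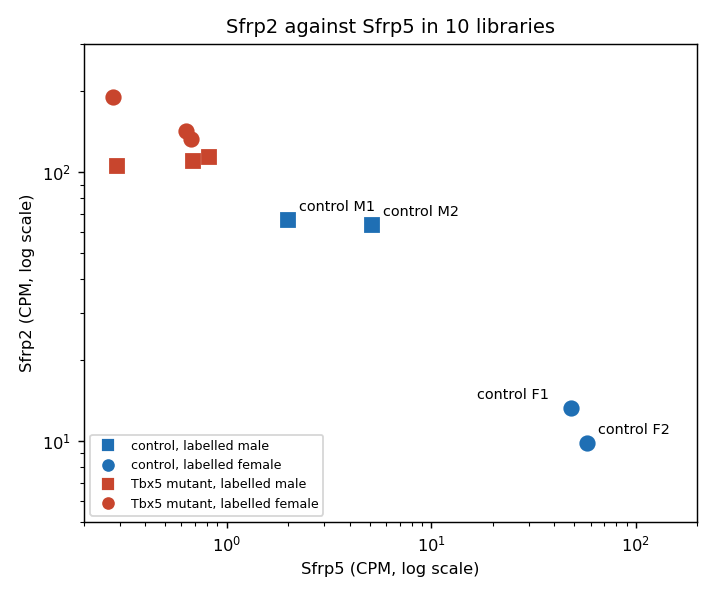
Sfrp2 against Sfrp5 in CPM, both on log axes, with 1 point per library, marked by group and labelled sex. The 2 control libraries labelled female lie at 48.0 and 57.5 CPM of Sfrp5 with 13.3 and 9.88 CPM of Sfrp2, and the 6 mutants lie at the opposite corner, at or under 0.817 CPM of Sfrp5 and at or above 105.4 CPM of Sfrp2.

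The spread of Sfrp2 among controls was larger than counting error or the spread within a labelled sex. Control M libraries averaged 65.2 CPM, 5.62 times the 11.6 CPM of control F libraries. The difference of labelled females from labelled males in the controls was -2.50 on the log2 scale (standard error 0.20, adjusted p = 7.67e-05, edgeR). Besides Sfrp5, which is left out of the count, 26 of 13083 genes (0.199%) passed this test. In the mutants the same difference of Sfrp2 was 0.50 (standard error 0.14, adjusted p = 0.308, unadjusted p = 0.00384, edgeR), and 8 genes (0.0611%) passed. All mutants labelled female, at 133.3 to 190.5 CPM, were nonetheless above all mutants labelled male, at 105.4 to 114.4 CPM. The interaction of genotype and labelled sex, the test of the difference itself, was 3.00 for Sfrp2 (standard error 0.24, adjusted p = 7.53e-05). Among all genes 38 passed it, 0.290% of those tested. With the control sex labels exchanged it was -1.997 (standard error 0.24, adjusted p = 0.0355), and 1 gene passed, 0.00764% of those tested, which was Sfrp2. Sfrp2 was therefore the only gene past both tests in edgeR, with a sign that turns with the labels. Both tests contain the same difference between the control pairs with opposite sign, so the second is no separate support. With the labels exchanged, the adjusted p was 0.0646 without mutant F1 and 0.0548 without mutant M3. With 2 control libraries per labelled sex, labelled sex, sex as read from Xist and Ddx3y, and any other difference between these pairs of mice cannot be told apart.

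Frzb, which encodes another Frizzled-related antagonist, followed Sfrp2 in direction at a smaller size. It was at 16.0 and 17.9 CPM in control M1 and M2 and at 7.53 and 10.4 CPM in control F1 and F2. In the mutants it was at 18.9, 26.0 and 31.2 CPM in F1, F2 and F3 and at 20.6, 31.7 and 23.4 CPM in M1, M2 and M3. The groups did not overlap, although the lowest mutant, F1, lay just above the highest control, M2. Frzb rose from 12.9 ± 4.81 CPM (SD, n = 4) to 25.3 ± 5.36 CPM (SD, n = 6), a log2 fold change of 0.975 (standard error 0.22, adjusted p = 0.0049, edgeR). In a fit to libraries labelled male alone the log2 fold change was 0.59 and the call was lost (adjusted p = 0.104). Under exchanged control labels it was 1.51 for mutants labelled male (adjusted p = 0.00716), and the call was lost at 0.59 for those labelled female (adjusted p = 0.0696). Both losses were against control M1 and M2. Control M libraries averaged 1.89 times control F libraries, and this difference did not pass the test (log2 -0.90, standard error 0.28, adjusted p = 0.246).

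Sfrp1, a Frizzled-related antagonist expressed in many mesenchymal cells, was even among the controls. It was at 37.1, 39.5, 31.0 and 36.7 CPM in control M1, M2, F1 and F2. In the mutants it was at 65.0, 69.7 and 74.7 CPM in F1, F2 and F3 and at 49.9, 81.1 and 66.2 CPM in M1, M2 and M3. All 6 mutants were above all 4 controls. Sfrp1 rose from 36.1 ± 3.599 CPM (SD, n = 4) to 67.8 ± 10.6 CPM (SD, n = 6), a log2 fold change of 0.91 (standard error 0.13, adjusted p = 0.00015, edgeR). It stayed past the threshold in each of 27 alternatives, with log2 fold changes of 0.78 to 1.04. In the controls the difference of labelled females from labelled males was -0.18 (adjusted p = 0.815).

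Sfrp4 was the least abundant of the Frizzled-related genes in the controls. It had 8, 12, 3 and 8 reads in control M1, M2, F1 and F2 and 5 to 13 in the mutants. The mean was 1.17 ± 0.623 CPM in the controls (SD, n = 4) and 1.64 ± 0.244 CPM in the mutants (SD, n = 6), and the groups overlapped, since control M2 at 1.99 CPM was above all mutants but F1 at 2.05 CPM. The log2 fold change of 0.50 (standard error 0.33) did not pass the test (adjusted p = 0.26, edgeR). The lowest control, F1 at 0.470 CPM, rested on 3 reads. Control F2 at 1.08 CPM was close to control M1 at 1.14 CPM. In the controls the difference of labelled females from labelled males did not pass the test (log2 -0.94, adjusted p = 0.546, edgeR).

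Dkk3, the Dickkopf family member, was the antagonist that fell besides Sfrp5. It was at 1866.2, 1754.8, 1879.7 and 2008.2 CPM in control M1, M2, F1 and F2. In the mutants it was at 1097.4, 1319.3 and 1200.4 CPM in F1, F2 and F3 and at 1066.6, 883.6 and 1343.4 CPM in M1, M2 and M3. Every mutant was below every control. The mean went from 1877 ± 103.7 CPM (SD, n = 4) to 1152 ± 172.8 CPM (SD, n = 6), with a log2 fold change of -0.70 (standard error 0.13, adjusted p = 0.000935, edgeR). In contrast to Sfrp5, the controls were close together, with a labelled-sex difference of 0.10 on the log2 scale (adjusted p = 0.908). In a fit to libraries labelled male alone the log2 fold change was -0.72 and missed the threshold (adjusted p = 0.0573), whereas the fit of 4 groups gave an adjusted p of 0.0112 for the same libraries. Under exchanged control labels, Dkk3 was past the threshold in fits to either labelled sex alone, at -0.81 for mutants labelled male (adjusted p = 0.032) and -0.59 for those labelled female (adjusted p = 0.00939).

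Apart from Sfrp2, none of the tested members passed the interaction of genotype and labelled sex. For Sfrp1, Sfrp4, Frzb and Dkk3 the adjusted p was 0.382 to 0.97 with labels as given and 0.471 to 0.966 with the control labels exchanged (edgeR), and 1 of the 4, Frzb, was under 0.05 before adjustment with either set of labels. DESeq2 also passed 0 of the 4 with either set of labels, and limma 0 with the labels as given. Of the 5 tested antagonists other than Sfrp5, 4 had groups that did not overlap, 1 below and 3 above every control, beside 22.7% of all genes tested, 11.0% below and 11.7% above. Nothing is read from that count either. Within libraries labelled male, 3 of the 5 tested antagonists other than Sfrp5 (Sfrp1, Sfrp2 and Dkk3) were past an adjusted p of 0.05 in the fit of 4 groups, beside 21.7% of all genes. Within libraries labelled female 4 of the 5 were past it, all but Sfrp4, beside 15.9%. With the control labels exchanged, 4 of the 5 were past it for mutants labelled male, all but Sfrp4, beside 22.4% of all genes, and 3 of the 5 for mutants labelled female, Sfrp1, Sfrp2 and Dkk3, beside 12.9%.

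**Figure D3:**
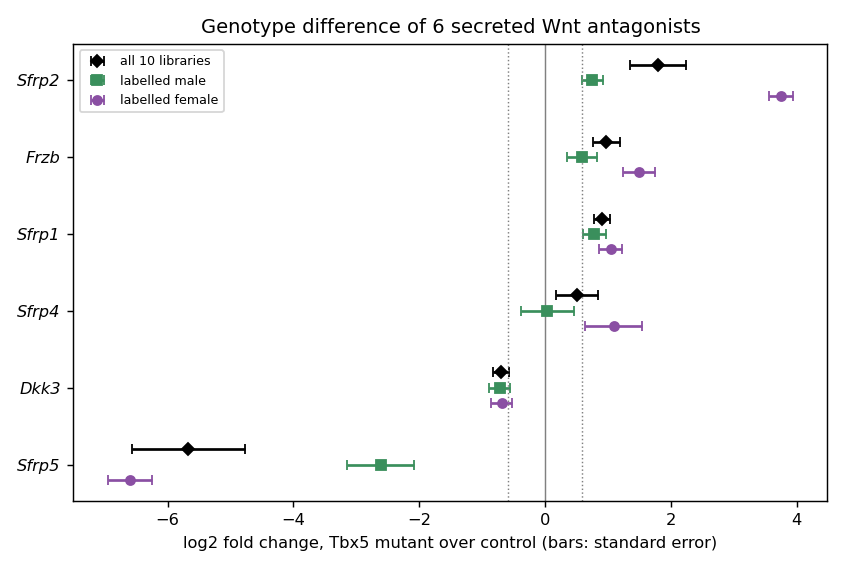
Log2 fold change of libraries labelled Tbx5 mutant over those labelled control for the 6 tested antagonists, from the fit to all 10 libraries and, in the fit of 4 groups, within each labelled sex, with the control labels as given. Bars are standard errors and dotted lines mark a fold of 1.5. Sfrp5 moves from -2.62 in labelled males to -6.60 in labelled females and Sfrp2 from 0.75 to 3.75, while Dkk3 stays at -0.72 and -0.69.

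The genes most like Sfrp5 over the 10 libraries, by Pearson r of log2 CPM, were Spg20 (0.972), Lrrc14b (0.970), Slc22a23 (0.963), Fitm1 (0.960), Atp8a1 (0.958), Entpd5 (0.957), Pla2g4e (0.956), Padi2 (0.956), Slc17a7 (0.953) and Aldh16a1 (0.953). Of these, 8 were called lower in the mutants, all but Spg20 and Atp8a1. Padi2, a peptidylarginine deiminase, came nearest in shape, at 7.57 and 6.29 CPM in control M1 and M2, 20.9 and 21.5 CPM in control F1 and F2 and 1.67 to 4.80 CPM in the mutants. Slc17a7, a vesicular glutamate transporter, was at 83.2 and 94.5 CPM in control M1 and M2, 159.9 and 144.2 CPM in control F1 and F2 and 40.5 to 53.4 CPM in the mutants. Both differed far less among controls than Sfrp5 did. When each group mean was first removed, a different 10 led, with 0 shared: 2310042D19Rik (0.963), Gfm1 (0.950), Cwf19l1 (0.949), Afg3l2 (0.943), Med19 (0.941), R74862 (0.927), Gbas (0.926), Dlat (0.924), Fh1 (0.918) and Got1 (0.913). None of the 10 was called in the genotype comparison, and in this second list the likeness rests on the difference among the 4 controls. Among the antagonists, r with Sfrp5 over the 10 libraries was 0.82 for Dkk3, -0.72 for Sfrp4, -0.85 for Sfrp1 and -0.93 for Frzb.

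The rest of the Wnt pathway was read from 6 lists with 83 genes in all, of which 52 were tested. Of these, 7 were called lower and 6 higher, 13 in all, where 15.7% of all genes tested were called, 7.16% lower and 8.50% higher. The counts of each list below stand against the same shares. With the labels as given, 0 of the 52 passed the interaction of genotype and labelled sex in edgeR (5 before adjustment) and 0 in DESeq2 or limma. With the control labels exchanged, 0 passed in edgeR (7 before adjustment) and 0 in DESeq2.

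Among the other extracellular or membrane antagonists, 1 of 7 tested genes fell and 3 rose, with a median log2 fold change of 0.13. Sost, which encodes sclerostin, an inhibitor that binds Lrp5 and Lrp6, rose from 1.98 ± 0.631 to 6.59 ± 2.61 CPM (SD, n = 4 and 6), with a log2 fold change of 1.74 (standard error 0.35, adjusted p = 0.00215, edgeR). Its lowest mutant, at 2.68 CPM, was just above its highest control, at 2.48 CPM. Apcdd1, a membrane antagonist that is itself a Wnt target, rose by 0.98 on the log2 scale (adjusted p = 0.00109), and Tpbg by 0.69 (adjusted p = 0.0379). Shisa2, which holds Frizzled receptors inside the cell, fell from 10.6 ± 4.92 to 4.06 ± 1.08 CPM, a log2 fold change of -1.40 (adjusted p = 0.00178). Its controls had the order of Sfrp5, at 7.29 and 6.95 CPM in M1 and M2 and 17.6 and 10.7 CPM in F1 and F2. Those of Apcdd1 and Tpbg had the order of Sfrp2, and those of Sost had neither. None of these differences of labelled sex in the controls passed the test (adjusted p 0.237 to 0.856, edgeR). Dkk1 and Dkk4 had at most 1 and 2 reads in any library.

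The Wnt ligands gave no call among 8 tested genes in edgeR, DESeq2 or limma, with 2 under 0.05 before adjustment and a median log2 fold change of -0.11. Wnt5a was the most counted, at 29.6 ± 2.65 CPM in the controls and 34.3 ± 6.65 CPM in the mutants (SD, n = 4 and 6). Of 14 tested receptors and coreceptors, Ror2, which binds Wnt5a, fell by 1.27 on the log2 scale (adjusted p = 0.000106), from 14.0 ± 1.42 to 5.70 ± 1.43 CPM. Fzd2 rose by 0.68 (adjusted p = 0.00646), and the other 12 were not called. Of 3 tested genes of the R-spondin group, which strengthens Wnt signals, the receptor Lgr6 fell from 71.7 ± 9.72 to 26.3 ± 4.91 CPM (log2 -1.45, adjusted p = 7.68e-06), while Rspo1 and Lgr4 were not called.

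Inside the cell, 3 of 15 genes of the Wnt machinery fell and 0 rose. They were the transcription factor Tcf7l2 (log2 -0.87, adjusted p = 0.00269), Apc of the complex that destroys beta-catenin (-0.66, adjusted p = 0.018) and the beta-catenin cofactor Bcl9l (-0.61, adjusted p = 0.00868). Of the 7 tested feedback and target genes, 1 fell and 3 rose. Apcdd1 and Znrf3 are also in the list of other antagonists, so the rise of Apcdd1 is counted in both lists. Axin2, a target gene that is also a negative regulator of the pathway, was at 15.6, 15.9, 13.8 and 14.9 CPM in control M1, M2, F1 and F2, and at 7.35 ± 1.55 CPM in the mutants (SD, n = 6). Every mutant was below every control, with a log2 fold change of -1.06 (adjusted p = 0.000156), and its controls did not follow the split of Sfrp5. Myc rose by 1.93 (adjusted p = 0.000175) and Ccnd1 by 0.81 (adjusted p = 0.000317), both also known to respond to other signals. Lef1 had 0 to 3 reads per library and was not tested.

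**Figure D4:**
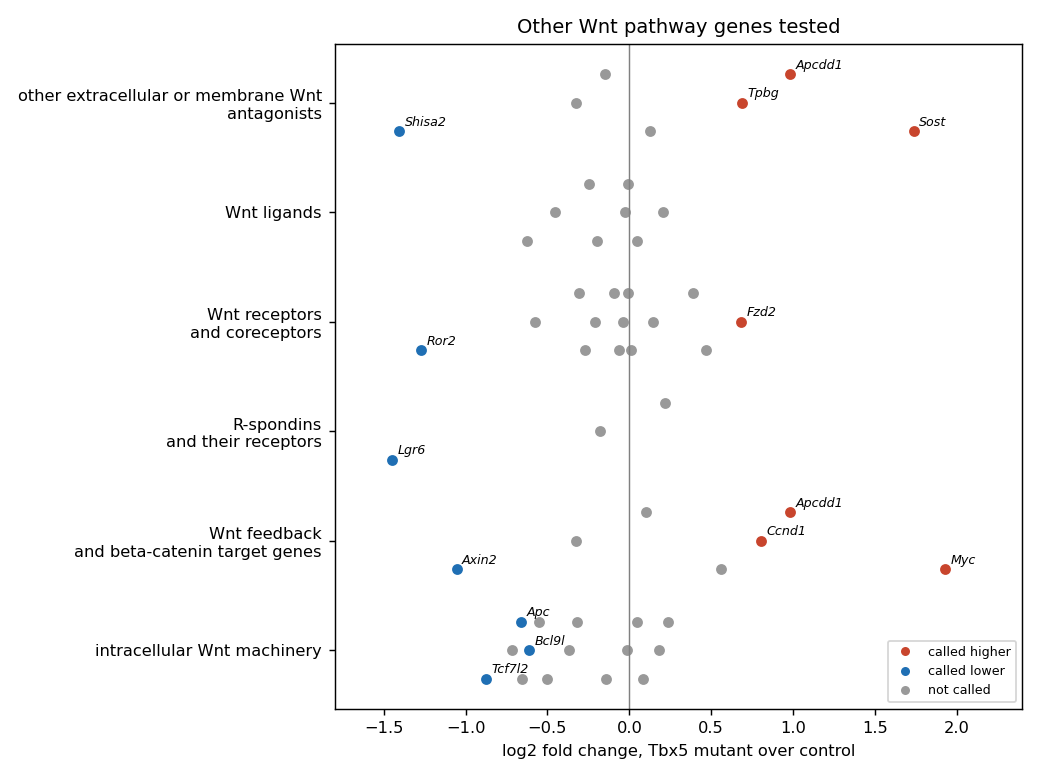
Log2 fold change, mutant over control, of the tested genes of 6 Wnt pathway lists, with 1 point per gene in each list. Points are coloured by call (red higher, blue lower, grey not called) and staggered in height only for legibility. Calls lie on both sides of 0 among the antagonists, receptors and targets, with 1 lower and 3 higher among the 7 other antagonists, and all 8 ligands are uncalled.

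Markers of cell types that could carry these antagonists moved with some of them. Summed over 6 markers, activated fibroblast genes were at 642 and 671 CPM in control M1 and M2, 375 and 417 CPM in control F1 and F2, and 1320 to 1889 CPM in the mutants, the same order of groups as Sfrp2. Of the 6, 4 rose, led by Postn (log2 2.33, adjusted p = 0.000154, edgeR). Postn was at 252.5 and 196.4 CPM in control M1 and M2 and 89.5 and 80.9 CPM in control F1 and F2. Fn1 and Cilp divided the controls in the same way, whereas Cthrc1, Comp and Acta2 did not. Acta2 was at 70.4 and 55.1 CPM in control M1 and M2 and 63.2 and 101.0 CPM in control F1 and F2. The 10 general fibroblast markers gave 4 rises (Col1a1, Col1a2, Col3a1 and Mfap5) and 1 fall (Gsn), with sums of 8854 to 10779 CPM in the controls and 8654 to 12236 CPM in the mutants. Gsn, at 5030 to 6613 CPM in the controls, was a large part of that sum. Dcn, a marker of fibroblasts at large, was at 1885 ± 139.2 and 1870 ± 212.9 CPM. Col1a1, Col1a2, Col3a1, Pdgfra, Dcn, Lum, Mfap5 and Pi16 were higher in both control M than in both control F libraries, as Sfrp2 was. Tcf21 and Gsn were not. None of the general markers passed the edgeR test of labelled sex in the controls (lowest adjusted p = 0.0813, Pi16). All 5 proliferation markers rose, with sums of 11.5 to 26.1 CPM in the controls and 71.1 to 240 CPM in the mutants. The part of these changes in the rise of Sfrp1, Sfrp2 and Frzb was not tested.

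Of 7 tested sinoatrial and venous pole markers, 3 fell (Hcn4, Tbx3 and Cacna1d). Summed over the list they were at 150.2 and 193.6 CPM in control M1 and M2, 163.8 and 157.6 CPM in control F1 and F2 and 108 to 160 CPM in the mutants, so that the sum did not divide the controls as Sfrp5 did. Hcn4, the pacemaker channel gene, was at 2.00 and 5.29 CPM in control M1 and M2, 10.8 CPM in both control F1 and F2 and 0.686 to 3.63 CPM in the mutants. Others of the list did not follow that order among controls. Tbx3, a T-box factor of the sinus node, was at 4.57 and 10.4 CPM in M1 and M2 and 6.43 and 9.34 CPM in F1 and F2, and Smoc2 was at 45.4 and 49.8 CPM in M1 and M2 and only 17.1 and 26.7 CPM in F1 and F2. Adipocyte markers were near their floor in the libraries with the most Sfrp5, with sums of 0.470 and 0.677 CPM in control F1 and F2 against 1.29 and 4.14 CPM in control M1 and M2, and 0 of 5 passed the expression filter. The 10 epicardial and mesothelial markers gave no call in edgeR, DESeq2 or limma (2 under 0.05 before adjustment), with sums of 432 to 456 CPM in the controls and 271 to 531 CPM in the mutants. Of 8 atrial cardiomyocyte markers 4 fell (Myl7, Nppa, Sln and Ryr2) and 1 rose, with sums of 73842 to 86242 CPM in the controls and 54322 to 69061 CPM in the mutants, so that markers of the labelled tissue were abundant in every library. Endothelial and endocardial markers gave no call among 6 in edgeR, DESeq2 or limma (2 under 0.05 before adjustment). Smooth muscle and pericyte markers gave 1 rise among 6, leukocyte markers 3 rises among 4, Schwann cell markers 1 fall among 2, and valve and tendon markers 1 fall among 2 tested, with the tendon marker Tnmd at 0 in every library. The part of sinoatrial and cardiomyocyte content in the level of Sfrp5 was not tested.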

How the data were processed

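Right atrial RNA was sequenced from 10 mice. The authors deposited 1 table with counts of reads per gene, unnormalized, and a normalized signal, each count divided by a DESeq2 size factor. Its other columns, deposited by the authors as their own comparison and not used here, hold log2 fold changes, a Wald score, p-values and the fold change as a ratio. The submitters' processing notes name FastQC, TopHat2 2.0.11, featureCounts, DESeq2 and mm10, without roles; the library kit is labelled both as mRNA and as ribosome-depleted total RNA. Whether counting used strand is not given in the sources used here.

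Counts were filtered with filterByExpr, scaled by TMM and compared with edgeR 4.0.16 (R 4.3.3) over all 10 libraries without covariates, with a prior count of 0.125. The thresholds are those given with the first call. Standard errors were obtained by dividing the log2 fold change by the square root of F. Replicates are separate mice; the counts of any 2 libraries of a group differed by a chi-square of at least 3.94 per degree of freedom. Intervals and floors cover counting error only. On simulated data, 176 of 200 genes changed by a fold of 2 were recovered among 12969, with 7 other calls, and 168 of 200 interactions of a fold of 4 among 12966, with 12 other calls. Transcript lengths came from GENCODE M21 and promoters from RefSeq, GRCm38.p6, which held 5 of the 8 members.

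The members and gene lists were chosen with earlier results of these data known. Named genes are the members, up to 4 called genes with the largest change per pathway list, Axin2, Lef1, the 10 genes most like Sfrp5 by each measure, Tbx5 and Rn45s; all others, including the sex-linked genes, Wnt5a, Dkk1, Dkk4 and single cell type markers, were named after their values were seen. Alternatives covered scaling, tool (DESeq2 1.42.0, limma 3.58.1), low counts, prior count, Rn45s, sex, replicate number, transcript length, each library left out and thresholds. The contrasts of 4 groups, each labelled sex alone with the control labels exchanged, and the length of the union of exons were added after the data were seen. Replicate numbers do not pair the libraries: the mean correlation of deviations was 0.00256 over 4 same-number pairs and -0.000662 over 20 others.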

Additional observations from a re-analysis of the deposited data

Results flagged for a closer look

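The interaction of genotype and labelled sex differed from 0 for Sfrp2, at 2.995 on the log2 scale (adjusted p = 7.53e-05, edgeR), so that the difference between mutant and control was larger in libraries labelled female with the labels as given. Both values within labelled sex were positive, 0.75 and 3.75, and all 6 mutants were above all 4 controls. With the control labels exchanged the interaction was -1.997 (adjusted p = 0.0355).

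The summed adipocyte markers of mutant M2, at 20.8 CPM, lay far from those of the other 5 mutants, which were at 0 to 2.51 CPM (Dixon's criterion). Of 36 groups of values examined in this way 1 stood out, where chance gives 1.8. Sfrp5 in that library was at 0.291 CPM, within the range of the other mutants.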

How the results depend on the processing

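Sfrp5, which chose the family, is left out of the counts of members called. The other 4 called, Sfrp1, Sfrp2, Frzb and Dkk3, kept their direction in each of the 27 alternative fits run on them (scaling, tool, filter, prior count, covariates, each library left out, and each labelled sex alone, also with the control labels exchanged). They kept their call except in libraries labelled male, where Frzb and Dkk3 lost it, leaving 2 members called and 0 lower, and in mutants labelled female with the control labels exchanged, where Frzb lost it. Sfrp5 was at -2.61 and -2.70 in these fits. A fold threshold of 2 left 1 member called, Sfrp2, with 0 lower and 1 higher, since Dkk3 differed by less than that fold, and 906 genes, 367 lower and 539 higher. Without a fold threshold 4096 genes were called, 1967 lower and 2129 higher. With a mean count of at least 50 the count was 1284, of which 653 were higher, since fewer genes were tested. With each library left out in turn, calls numbered 1807 to 2205, with 824 to 1076 lower and 983 to 1169 higher, and each of these 4 members stayed called. The replicate block, although the numbers do not pair the libraries, gave 1957 calls, 903 lower and 1054 higher, and changed no member's call. The log2 fold change correlated with transcript length (Spearman -0.31 over 11868 genes, not independent replicates). Removing that trend gave 1738 calls, and 1619 together with the replicate block, with the 4 members called in both.

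The interaction of genotype and labelled sex passed in 38 genes as given, 161 with DESeq2, 1 with the control labels exchanged and 62 with those and DESeq2. With each mutant left out, it passed in 26 to 64 genes as given and in 0 to 10 with labels exchanged; the 0 was without F1 or M3, where 1215 and 1238 genes were under 0.05 before adjustment. For Sfrp2 it was positive and past the threshold in each of 9 alternatives with the labels as given, the highest being 3.078. It was reversed with the control labels exchanged, at -1.997, at -2.001 with DESeq2, and between -2.179 and -1.907 with each mutant left out. The sign of the Sfrp2 interaction turned only in fits with the control labels exchanged. The number of genes passing also moved with the labels as given, to 161 with DESeq2 and to 64 without mutant M1. The genes most like Sfrp5 shared 0 of 10 with those found over the mutants alone, where Sfrp5 had 2 to 5 reads. Per-length levels with RefSeq transcripts were not run, since that table gives only gene spans. The union of exons moved no level beyond 1 SD. Depth limits Sfrp4, Dkk2, Wif1 and the mutant values of Sfrp5, which rest on few reads.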

Other observations

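Other genes set the control libraries labelled female apart from those labelled male as Sfrp5 and Sfrp2 did, named here after their values were seen. Of the 26 genes past the edgeR test of that difference, Sfrp5 left out, 8 were on the X or Y chromosome and 18 on autosomes. Penk, which encodes the enkephalin precursor, was higher in the libraries labelled female by 2.82 on the log2 scale, the complement gene C7 by 2.65 and the methyltransferase gene Inmt by 2.03. Kcne1, a potassium channel subunit, differed by -2.86, Pamr1 by -1.83 and the matrix gene Aspn by -1.21. Kcne1 rested on few reads, at 2.24 CPM in control M and 0.292 CPM in control F, where 1 read was 0.135 to 0.157 CPM. Sfrp2, at -2.50, ranked 21 of 11316 autosomal genes by the size of this difference. Sfrp5 ranked 7, which only describes the values that picked it.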
